A study of Homo sapiens with 7 samples.

Results

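The HOX genes of clusters A, B, C and D were described in HCT116 H2B-GFP cells treated with bafilomycin A1. Members were all non-control spots on the arrays whose gene name is HOX, a cluster letter and a number. 39 genes met this rule, of 36337 gene names on the array, and they were read by 45 probes printed as 54 spots. HCT116 is a near-diploid human colon carcinoma cell line, and the derivative used here carries the histone H2B fused to GFP. Bafilomycin A1, an inhibitor of the vacuolar proton pump, was given at 10 nM for 30 h according to the sample labels. 4 biological replicates of this treatment were measured, each on 1 single-colour (Cy3) Agilent array, from 100 ng of total RNA. The 3 untreated samples of the same line were not analysed here, so nothing below compares treated with untreated cells, and there is no p-value. All values come from 1 line grown as bulk cultures, in which fewer cells with a transcript and less transcript per cell cannot be told apart.

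HOX genes encode transcription factors with a DNA-binding homeodomain, and they give cells along the body axis their positional identity. The 4 human clusters arose by duplication, so that genes with the same number on different clusters, called a paralog group, resemble each other more than they resemble their neighbours. Low numbers lie at the 3' end of a cluster and are used in anterior parts of the embryo, such as the hindbrain, whereas high numbers lie at the 5' end and are used in posterior parts, such as the hindgut. Adult cells keep part of this code, held in place by Polycomb and Trithorax chromatin complexes, and HOX proteins bind DNA together with PBX, MEIS and PKNOX partners.

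The probe coordinates in the files, on GRCh37, placed the part of cluster A from HOXA2 to HOXA13 at chr7:27140350-27236733, cluster B at chr17:46607916-46802203, cluster C at chr12:54340034-54449814 and cluster D at chr2:176960600-177055431. In every cluster the order of the genes followed their numbers when each gene was placed by its probes of RefSeq transcripts. The second HOXD3 probe, of another transcript, starts at chr2:177004062, between the probes of HOXD8 and HOXD4. The probes have 60 bases, and the longest run that a HOX probe shared with a probe of any other gene name was 12 to 16 bases. Probes were compared with probes on the same strand and not with transcripts, so matches to paralog transcripts were not tested. Only 2 of the 45 probes held the codons of the conserved core of the homeodomain's recognition helix (tryptophan, phenylalanine, glutamine, asparagine, with any base at the last position of the last 3 codons), which were searched on both strands. Of all 50599 probes on the array, 0.111% held it. The search required the whole pattern, so probes that hold part of it, or other parts of the homeodomain, were not counted. The second HOXD9 probe, given further on, starts inside the pattern. How many probes lie in stretches that paralogs share was therefore not determined. Both probes with the whole pattern are given in full, 5' to 3', and the capitals mark it.

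HOXB2 probe A_33_P3271273: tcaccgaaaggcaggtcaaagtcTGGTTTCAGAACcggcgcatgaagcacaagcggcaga

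HOXC10 probe A_24_P218805: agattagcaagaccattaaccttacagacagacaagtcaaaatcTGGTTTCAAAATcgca

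Most HOX genes of these cells gave a signal on every array, and the clusters differed in how many of their genes did. The scanner software marks each spot whose signal is well above background. Detection of a probe required this mark on over 50% of its spots of that array, and detection of a gene required 1 such probe. By this rule 26 of 39 genes (66.7%) were detected on all 4 arrays, 6 on 1 to 3 arrays and 7 on none (17.9%). Among all gene names on the array 54.2% were detected on all 4 arrays, and among those that are symbols of RefSeq protein-coding genes 72.8% were. On no array were 35.2% and 20.1% of these detected. The share of HOX genes detected on all 4 arrays thus lay between both backgrounds. Most HOX genes have 1 probe. Of those 33 genes 20 (60.6%) were detected on all 4 arrays, against 48.2% of all gene names and 68.1% of protein-coding symbols with 1 probe. On single arrays between 27 and 30 HOX genes were detected.

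Clusters A and B were detected almost throughout, cluster C in part and cluster D in few genes. In cluster A 9 of 11 genes were detected on all 4 arrays, in cluster B 9 of 10, in cluster C 5 of 9 and in cluster D 3 of 9. The 7 genes detected on no array were HOXB1, HOXC12, HOXD1, HOXD4, HOXD11, HOXD12 and HOXD13, of which 5 belong to cluster D. No test was made of the difference between clusters, since genes of a cluster are not replicates.

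**Figure D1:**
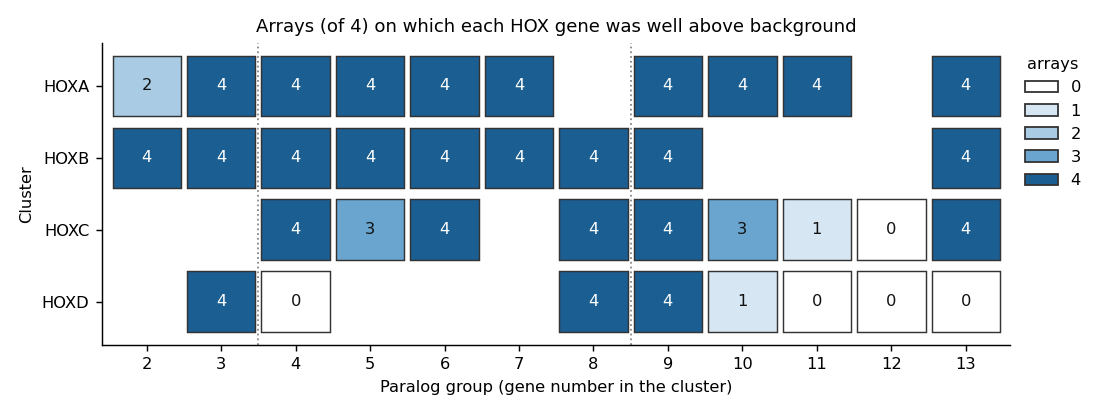
Number of bafilomycin A1 arrays, of 4, on which HOX genes of paralog groups 2 to 13 were well above background, by cluster (rows) and paralog group (columns); blank positions have no gene, and dotted lines part the anterior, central and posterior groups. Clusters A and B are dark from group 3 and group 2 onwards, and cluster D is dark at groups 3, 8 and 9.

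Detection by position differed between clusters, and no test was made of it. Of the anterior genes, paralog groups 1 to 3, 4 of 8 were detected on all 4 arrays. Of the central genes, groups 4 to 8, 13 of 15 were, and of the posterior genes, groups 9 to 13, 9 of 16 were. In clusters A and B every central and posterior gene was detected on all 4 arrays, so their gaps lay at the anterior end alone. In cluster C 3 of 4 central and 2 of 5 posterior genes were detected, and in cluster D 1 of 2 central and 1 of 5 posterior genes.

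Detected genes formed an unbroken run in each of clusters A and B and were broken up in clusters C and D. Cluster A held an unbroken run of 9 detected genes from HOXA3 to HOXA13, 89.9 kb between the probes at its ends. Cluster B held a run of 9 genes from HOXB2 to HOXB13 over 182 kb, of which 104 kb is the gap between HOXB9 and HOXB13. Cluster C was broken into a run of 3 genes from HOXC6 to HOXC9 (27.9 kb) and the single genes HOXC4 and HOXC13. Cluster D held the pair HOXD8 and HOXD9, 7.27 kb apart, and the single gene HOXD3. Of 35 pairs of neighbouring genes, 25 had the same state, both detected on all 4 arrays or both not. This was so for 9 of 10 pairs in cluster A and 8 of 9 in cluster B, but 4 of 8 in each of clusters C and D. How many such pairs the detection counts alone would give was not tested.

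Paralog groups differed as well. Of 13 groups, 5 had every member detected on all 4 arrays, namely groups 3, 6, 7, 8 and 9. Groups 3 and 9 count here through HOXD3 and HOXD9, each of which has a second probe detected on no array. These groups were no longer complete when every probe of a gene had to be detected. In 2 groups no member was detected on all 4 arrays, one of them being group 12, and the other 6 were split. Group 9 was the largest group with all its members detected, since HOXA9, HOXB9, HOXC9 and HOXD9 each gave a signal on every array. In group 13, HOXA13, HOXB13 and HOXC13 were detected on all 4 arrays and HOXD13 on none.

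The values of the detected genes are given below as normalised log2 signals, that is, the log2 of the background-subtracted signal minus the median of the array, with the median taken over the probes of a gene. A value of 0 is the median of the non-control probes with a positive signal on that array. Because probes differ in how well they bind, levels of different genes are not compared, and only differences between arrays are read. The 4 values of each gene are in the order of replicates 1 to 4, which is a naming order.

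In cluster A, HOXA3, a regulator of thymus and parathyroid development, was the first detected gene. Its values were 2.49, 2.56, 3.204 and 2.74 (mean 2.75, SD 0.32, n = 4), highest on replicate 3. HOXA4 gave 0.71, 0.80, 0.86 and 0.82 (SD 0.06, n = 4), a span of 1.11-fold. HOXA5, needed for the developing lung, gave 2.23, 1.98, 2.19 and 1.93 (SD 0.15, n = 4), with replicates 1 and 3 above replicates 2 and 4. HOXA6 was likewise higher on replicates 1 and 3, with 1.84, 1.41, 1.82 and 1.65 (SD 0.20, n = 4). HOXA7 gave 4.81, 4.65, 5.28 and 4.83 (SD 0.27, n = 4), again highest on replicate 3, by 1.55-fold over the lowest array.

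The posterior genes of cluster A include the best known regulators of blood and of the reproductive tract. HOXA9, which maintains blood stem cells and drives many leukaemias, gave 5.20, 5.18, 5.27 and 5.19 (SD 0.04, n = 4), the smallest SD among the detected HOX genes. HOXA10, which patterns the uterus, gave 4.77, 4.46, 4.77 and 4.52 (SD 0.17, n = 4). Each of these values is the median over a pair of probes that moved against each other between arrays, as described further on. HOXA11, a gene of the forearm, the kidney and the uterus, gave 0.72, 0.90, 1.57 and 0.80 (SD 0.39, n = 4), so that replicate 3 stood above the other arrays, which lay close together. HOXA13, a gene of the hindgut and the digits, gave 1.10, 0.87, 1.10 and 0.94 (SD 0.12, n = 4).

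In cluster B the median SD between arrays was 0.15, and HOXB8 was the only gene that spanned more than 1.4-fold. HOXB2, a hindbrain gene, gave 1.65, 1.81, 1.63 and 1.68 (SD 0.08, n = 4). HOXB3 gave 0.88, 0.75, 0.83 and 0.70 (SD 0.08, n = 4). HOXB4, known for expanding blood stem cells, gave 4.99, 4.98, 5.17 and 4.97 (SD 0.10, n = 4), with replicates 1, 2 and 4 within a narrow band and replicate 3 apart. HOXB5, a gene of the enteric nervous system, was one of the genes that the study proposed as markers of aneuploidy from other cell lines. Here it gave 4.23, 4.30, 4.61 and 4.18 (SD 0.19, n = 4), highest on replicate 3.

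The remaining genes of cluster B belong to groups 6 to 13. HOXB6 gave 6.16, 6.22, 6.52 and 6.28 (SD 0.16, n = 4), and HOXB7, a gene of the collecting ducts of the kidney, gave 0.88, 0.75, 1.02 and 0.68 (SD 0.15, n = 4). Both were highest on replicate 3. HOXB9 gave 6.74, 6.85, 6.72 and 6.88 (SD 0.08, n = 4) and was 1 of the 2 detected genes, with HOXB2, that lay below their own mean on replicate 3. HOXB13, a gene of the prostate and the hindgut, gave 3.69, 3.88, 4.11 and 3.75 (SD 0.18, n = 4).

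HOXB8 varied more than any other gene that is read by 1 probe detected on all 4 arrays. Its background-subtracted signals were 894, 1718, 3395 and 779, and its normalised values 3.53, 4.61, 5.59 and 3.62 (SD 0.97, n = 4). Replicates 1 and 4 lay together, replicate 2 above them and replicate 3 higher still, so that the arrays spanned 4.18-fold. Without replicate 3 the span was 2.12-fold, and with the other 2 normalisations it was 3.88-fold and 3.299-fold. Its neighbours HOXB7, 4.85 kb away, and HOXB9, 8.78 kb away, spanned 1.27-fold and 1.12-fold. The first 30 bases of its probe are given since the value rests on this probe alone.

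HOXB8 probe A_23_P370588: gctgtgggcaattgttacaagtgttcttag

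In cluster C, HOXC4, which acts in B cells, gave 2.83, 2.74, 3.48 and 2.45 (SD 0.43, n = 4) and spanned 2.04-fold. The local background of its spot on replicate 3, the highest array, was marked as an outlier by the scanner software. HOXC6 gave 4.73, 5.16, 5.00 and 4.95 (SD 0.18, n = 4). HOXC8, which sets the identity of motor neurons at the level of the forelimb, lay near the limit of detection, with signals of 30.7, 27.0, 33.6 and 29.0 and normalised values of -1.33, -1.38, -1.06 and -1.13 (SD 0.15, n = 4). HOXC9, its thoracic counterpart, gave 4.80, 5.03, 5.07 and 4.92 (SD 0.12, n = 4). HOXC13, a gene of hair and nail, gave 0.16, 0.24, 1.06 and -0.00353 (SD 0.47, n = 4) and spanned 2.09-fold, with replicate 3 above the other arrays.

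Of the 3 genes of cluster D detected on all 4 arrays, only HOXD8 was read by 1 probe, and it was steady. Its values were -0.20, 0.20, 0.00493 and -0.0627 (SD 0.17, n = 4). HOXD3 and HOXD9 each had a probe detected on all 4 arrays and a second one detected on none, and the rule takes the median over both. The second HOXD3 probe belongs to another transcript and lies 33665 bases from the first. For HOXD3 the median gave -2.83, -3.29, -2.80 and -3.23 (SD 0.26, n = 4), whereas its detected probe alone gave -1.62, -1.31, -1.54 and -1.39 (SD 0.14). For HOXD9 it gave -3.65, -2.88, -1.05 and -0.76 (SD 1.404, n = 4), the largest SD among the detected HOX genes. The second probe of HOXD9 had a signal at or below 0 on replicates 3 and 4, where it has no log2 value and dropped out of the median. The detected probe alone gave -0.91, -0.78, -1.05 and -0.76 (SD 0.13), a span of 1.22-fold. Both HOXD9 probes lie 187 bases apart on the same transcript, and the first 30 bases of each are given because only the first was detected.

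HOXD9 probe A_23_P429383, detected on all 4 arrays: ttttttctttttagatagaagtgactgtgt

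HOXD9 probe A_33_P3333238, detected on none: ttcagaaccgtaggatgaaaatgaaaaaga

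**Figure D2:**
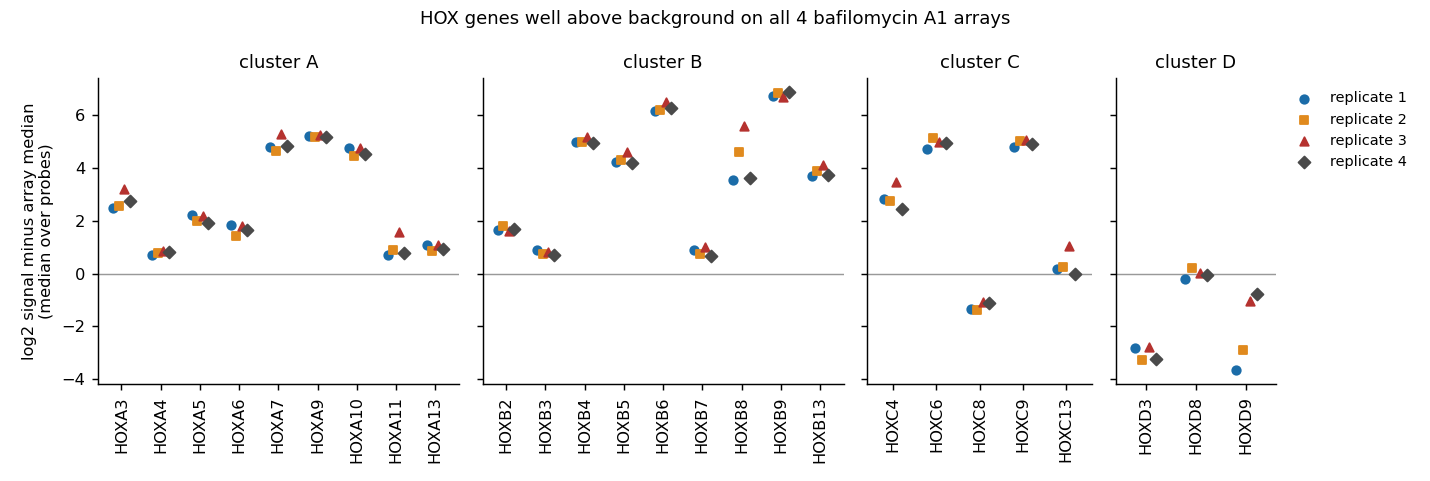
Normalised log2 signal (log2 signal minus array median, median over probes) of the 26 HOX genes detected on all 4 arrays, 1 point for each bafilomycin A1 replicate, in gene order by cluster; heights are compared within a gene only. HOXB8 spreads over 4.18-fold, HOXD9 over 7.40-fold through its undetected second probe, and most other genes hold their points close together.

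Over the 26 detected HOX genes the median SD between arrays was 0.17, against 0.21 over all 19689 gene names detected on all 4 arrays. 8 of the 26 genes (30.8%) spanned more than 1.4-fold between arrays, where 45.6% of all detected gene names did. They were HOXA3, HOXA7, HOXA11, HOXB8, HOXC4, HOXC13, HOXD3 and HOXD9. By cluster this was 3 of 9 genes in A, 1 of 9 in B, 2 of 5 in C and 2 of 3 in D, where both counted genes carry an undetected second probe. Without replicate 3 HOXB8 and HOXD9, 2 of the 26 genes, spanned more than 1.4-fold, where 21.3% of all detected gene names did.

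HOX genes tended to lie high on replicate 3. 18 of the 26 detected genes (69.2%) had their highest value there, where 48.4% of all detected gene names did. 3, 3 and 2 of them were highest on replicates 1, 2 and 4, where 20%, 25.4% and 6.18% of all detected gene names were. The mean deviation of the 26 genes from their own 4-array means was -0.14, -0.08, 0.28 and -0.06 on replicates 1 to 4. On replicate 3 it was 0.23 in cluster A, 0.25 in cluster B, 0.32 in cluster C and 0.43 in cluster D, and over all detected gene names it was 0.0639 with a median of 0.10. All 9 genes of cluster A and all 5 of cluster C lay above their mean on this array, as did 7 of 9 in cluster B and all 3 in cluster D. The value for cluster D was -0.08 when only detected probes were used. When the software's processed signal was used instead, with the 75th percentile as centre, 11 of 26 HOX genes (42.3%) were highest on replicate 3, against 39.7% of all detected gene names, and after normexp and quantile normalisation 10 of 26 (38.5%) were, against 36.2%. The excess of HOX genes over all genes was thus larger with the median-centred values than with the other 2 normalisations, and the mean deviation stayed above 0 in both, at 0.15 and 0.10.

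**Figure D3:**
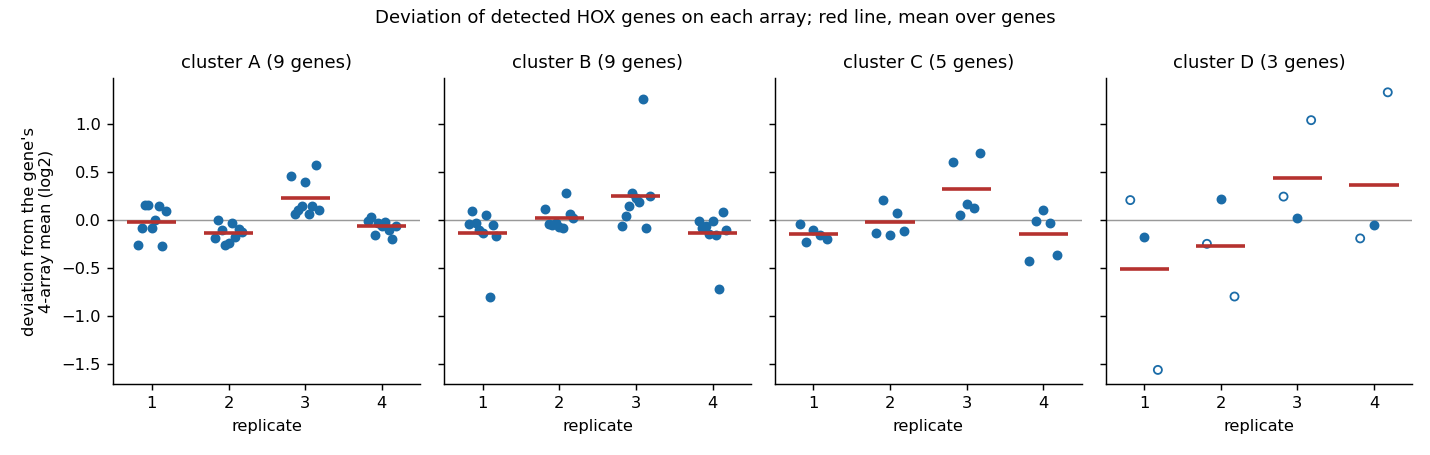
Deviation of each detected HOX gene from its own 4-array mean (log2), by bafilomycin A1 replicate and cluster; points are genes, red lines are means over the genes, and open points are HOXD3 and HOXD9, whose median includes an undetected probe. Red lines are highest on replicate 3 in all 4 clusters, at 0.23 in A, 0.25 in B, 0.32 in C and 0.43 in D.

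GC content of the probes moved with this deviation. Of the 30 HOX probes detected on all 4 arrays, 15 had a GC content below 40%, and their mean deviation on replicate 3 was 0.31, with 13 of 15 (86.7%) above 0. The 15 probes with 40% GC or more had a mean deviation of 0.09, with 10 of 15 (66.7%) above 0. Over all 25661 probes detected on all 4 arrays the corresponding means were 0.22 and 0.00306, with 84.5% and 54.7% above 0. The part of GC content in the HOX values was not tested.

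Of the 6 genes with 2 probes, HOXA6, HOXA9, HOXA10 and HOXB2 had both probes detected on all 4 arrays. In HOXA10 the probes moved against each other. The one nearer the 3' end gave 2.04, 1.96, 2.79 and 1.91, highest on replicate 3. The other, which spans a splice junction over 1235 bases of genome, gave 7.50, 6.95, 6.75 and 7.13, lowest on replicate 3 and highest on replicate 1. Their difference thus changed by 1.497 on the log2 scale between arrays, more than the span of either probe.

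HOXA9 showed the same direction at smaller size. Its probe nearer the 3' end gave 5.93, 5.93, 6.39 and 5.98 and the other gave 4.48, 4.42, 4.16 and 4.40, so that replicate 3 was the highest array for the first and the lowest for the second. Their difference changed by 0.77 between arrays. In HOXA6 the difference changed by 0.28 and in HOXB2 by 0.39, and both HOXA6 probes were lowest on replicate 2. The first 30 bases of both pairs that moved against each other are given here. GC content was 36.7% for both probes nearer the 3' end, 65% for the other HOXA10 probe and 45% for the other HOXA9 probe, and its part in the difference was not tested.

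HOXA10 probe A_24_P77904, nearer the 3' end: gccatatcatgctaaaattctatagagata

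HOXA10 probe A_33_P3288649: gctctccccggccccttccgagagcagcaa

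HOXA9 probe A_23_P500998, nearer the 3' end: aaacagttgcatagagtatagctctgtagt

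HOXA9 probe A_33_P3416231: tagaaaaaagggtaagctagagagaaaaag

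**Figure D4:**
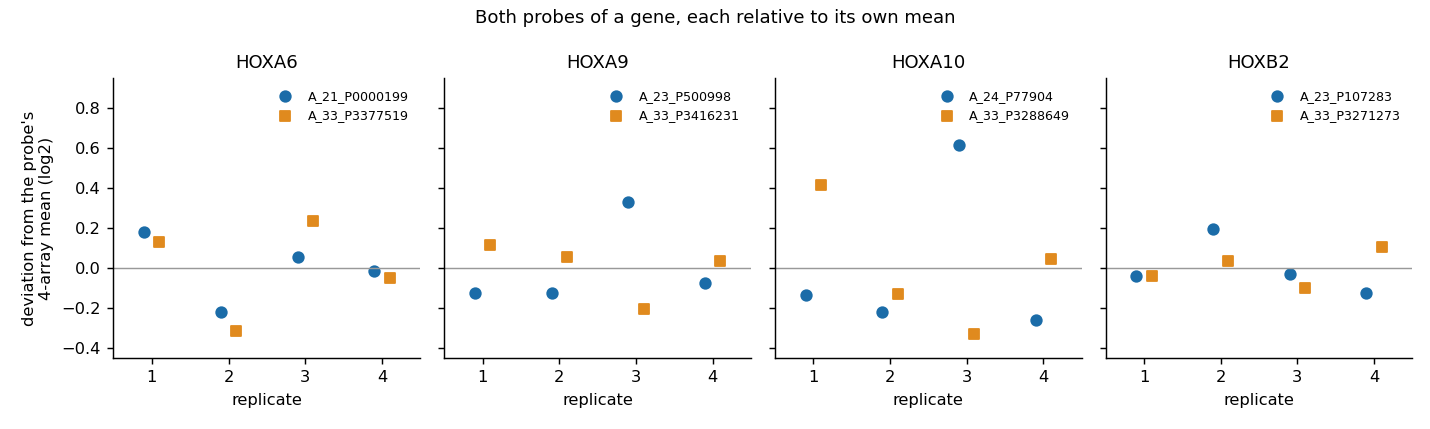
Deviation of each probe from its own 4-array mean (log2) for the 4 HOX genes with 2 detected probes, by bafilomycin A1 replicate. On replicate 3 the HOXA9 and HOXA10 probes part in opposite directions, whereas those of HOXA6 lie on the same side of 0 on every array.

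The genes detected on no array gave signals under the limit of detection and mostly above the mean of the negative control spots. Their probes, with the second probes of HOXD3 and HOXD9, make 9 probes and 36 signals, which ranged from -6.68 to 9.60. Negative control spots, 288 to 299 on an array, averaged between -6.80 and -4.68 and reached at most 3.81 to 5.45, and none of them was well above background. The lowest signals that the software called well above background were 20.8 to 22.3. 3 of the 36 signals exceeded every negative control spot of their array. These were HOXC12 on replicate 1 at 9.60, HOXD11 on replicate 3 at 9.20 and the second HOXD3 probe on replicate 3 at 4.23.

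HOXB1, which specifies a segment of the hindbrain, gave 4.91, 3.54, 1.39 and 2.17. HOXD1 was printed as 10 spots and gave 0.988, 1.65, 0.911 and -0.0687, the most spots of these genes, with 1 outlying spot left out on replicate 4. HOXD4 gave 4.45, 3.82, 0.424 and 0.717. HOXB1 and HOXD4 were above 0 on every array and HOXD1 on 3 of them. HOXD11, which with HOXA11 shapes the forearm and the kidney, gave -0.913, 3.00, 9.20 and -0.644. HOXD12 gave -2.99, -6.68, 3.23 and -2.32. HOXD13, the gene mutated in synpolydactyly, gave -0.389, -5.67, -5.64 and -4.29, the only one below 0 on all 4 arrays. HOXC12 gave 9.60, 2.54, -1.54 and -1.16.

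**Figure D5:**
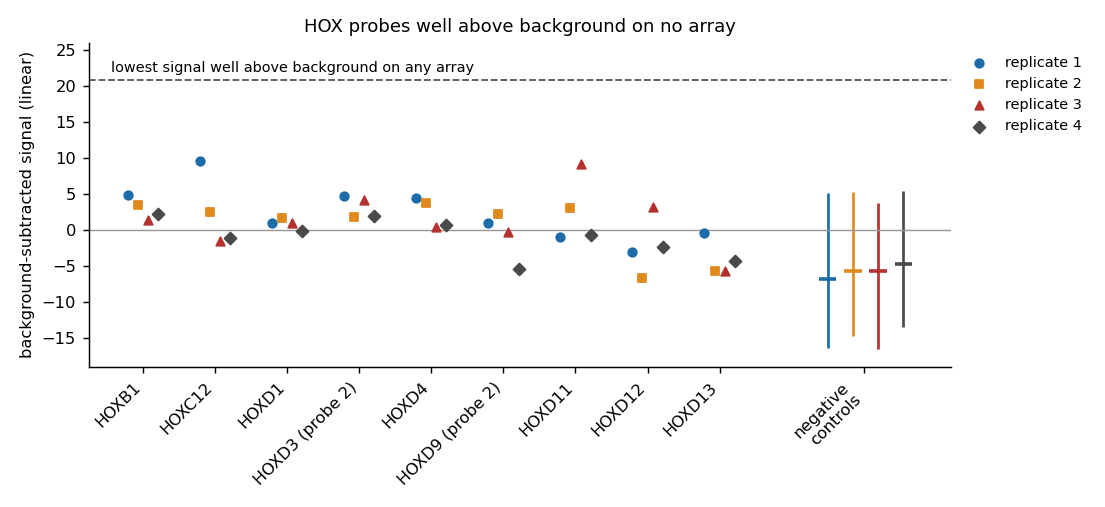
Background-subtracted signal (linear scale) of the 9 HOX probes well above background on no array, 1 point for each bafilomycin A1 replicate, beside the negative control spots of the same arrays (vertical line, range; short bar, mean); "probe 2" marks the undetected second probe of HOXD3 and HOXD9. All 36 points lie between -6.68 and 9.60, under the dashed line at 20.8, the lowest signal called well above background on any array.

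Of the 6 genes detected on some arrays only, 5 are described here. HOXA2, HOXC5 and HOXD10 lay at the limit. HOXA2, a gene of the second pharyngeal arch, gave 30.1, 21.8, 20.7 and 11.9 and was detected on replicates 1 and 2. HOXC5 gave 33.9, 30.7, 17.8 and 24.6 and failed on replicate 3 alone. HOXD10, which marks lumbar motor neurons, gave 12.6, 25.0, 12.2 and 1.45 and was detected on replicate 2 alone.

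HOXC10 and HOXC11 instead had 1 array far above the others. HOXC11 gave -7.03, -5.57, -6.30 and 147, below 0 on 3 arrays and well above background on replicate 4. HOXC10, a lumbar gene like HOXD10, gave 25.6, 25.9, 116 and 12.3, with replicate 3 the high array and replicate 4 under the limit. Each of these values rests on 1 spot, and none of those spots was marked as an outlier. HOXC10 and HOXC11 had 1 array apart by the gap to its nearest neighbour relative to the range of the 4 linear signals, as did 8.54% of all 24932 probes not detected on all 4 arrays. HOXC10 would not be singled out on the log2 scale, where this ratio was 0.70, below that of HOXA11 and HOXC13. Among all gene names detected on all 4 arrays, 7.94% had such an array on the log2 scale.

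Single-array signals of this kind were rare on replicate 4. 240 of 50599 probes (0.474%) were well above background on replicate 4 alone, and 36 of them (0.0711%) had a signal over 100, HOXC11 among them. Detected alone on replicates 1, 2 and 3 were 2.34%, 1.28% and 1.32% of probes, HOXD10 on replicate 2 among them. On these arrays 52 to 72 probes (0.134%, 0.103% and 0.142%) were detected alone with a signal over 100. The first 30 bases of the HOXC11 probe are given because its value rests on this probe and this array alone.

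HOXC11 probe A_23_P47941: tatttttattttttattttctaactcgtct

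Noncoding RNAs of the clusters were read for 7 of 16 listed names. Of these 7, 5 were detected on all 4 arrays, where 54.2% of all gene names were. HOTAIRM1 lies beside HOXA2 on the opposite strand. Its probe at chr7:27139801-27139860 gave 796, 919, 1017 and 723, although HOXA2 was detected on 2 arrays only. HOXA11-AS, antisense to HOXA11, was detected with both of its probes. HOTTIP, beyond HOXA13, was detected with none of 4 probes, which gave -10.2 to 21.3, although HOXA13 was detected on every array.

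At clusters C and D, detected noncoding RNAs also lay beside undetected HOX genes. HOTAIR, antisense between HOXC11 and HOXC12, was detected on all 4 arrays with 4 of its 9 probes. One of them is labelled with a transcript other than the RefSeq one. It lies at chr12:54350159-54350218 on the minus strand and gave 209, 149, 136 and 107. The other detected probes are of the RefSeq transcript and lie between the probes of HOXC11 and HOXC12. The probe of HOXC12 lies at chr12:54350226-54350285 on the plus strand, next to the first of these, and was detected on no array. HOXD-AS2, at chr2:176999583-176999642, gave 460, 365, 473 and 337 and lies between the detected HOXD8 and the undetected HOXD4. HOXB-AS3 was detected with 1 of 2 probes, at 634, 503, 457 and 463. HOXA-AS3 was detected on replicate 1 alone.

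A list of 21 other homeobox genes was also read. It held the ParaHox genes, EVX1 and EVX2 next to clusters A and D, and genes farther from the clusters, such as EN1. Of these 21 genes, 11 were detected on all 4 arrays, 1 on some and 9 on none. Among protein-coding symbols 72.8% were detected on all 4 arrays and 20.1% on none, and among all gene names 54.2% and 35.2%. EVX1, next to HOXA13, gave 5812, 3290, 4247 and 4421. EVX2, next to HOXD13, gave 60.8, 33.6, 37.2 and 27.2, so that it was detected on every array whereas HOXD11, HOXD12 and HOXD13 were detected on none. Of the ParaHox genes GSX1, a gene of the developing brain, and CDX1 and CDX2, intestinal regulators of HOX genes, were detected on all 4 arrays, and CDX4, PDX1 and GSX2 on none. EN1 was also detected on none.

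Partners and regulators of HOX genes were read from gene lists. Of 9 TALE cofactors, the PBX, MEIS and PKNOX proteins that bind DNA with HOX factors, 7 were detected on all 4 arrays, near the 72.8% of protein-coding symbols. PKNOX2 was detected on none. MEIS1, the partner of HOXA9 in leukaemia, was detected on replicate 1 alone, where its best probe gave 40.4 against -1.57 to 6.85 on the other arrays. PBX2 gave normalised values of 1.18, 1.48, 2.22 and 1.06, highest on replicate 3, and MEIS3 gave 1.63, 1.75, 0.74 and 1.03, lowest there.

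The listed chromatin regulators were all detected on all 4 arrays, where 72.8% of protein-coding symbols were. All 11 genes of Polycomb repressive complex 2, which methylates histone H3 at silent HOX genes, and all 12 of complex 1 were detected on all 4 arrays, as were all 10 of the Trithorax MLL list. JARID2 had the largest SD of complex 2, with 4.60, 4.84, 5.35 and 4.52 (SD 0.37, n = 4). KDM6A had that of the Trithorax list, with 0.78, 1.00, 1.34 and 0.65 (SD 0.30, n = 4). Both were highest on replicate 3. All 7 genes of the list of geminin, CTCF and their partners were detected, with CTCF, which insulates parts of the clusters from each other, at 2.62, 2.78, 3.17 and 2.66 (SD 0.25, n = 4).

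Retinoic acid switches on anterior HOX genes in embryonic cells, and 10 of 14 genes of its receptors and enzymes were detected on all 4 arrays, near the 72.8% of protein-coding symbols. RARB, itself a retinoic acid target, and ALDH1A2, which makes retinoic acid in the embryo, were detected on none. CYP26B1 was detected on 2 arrays and CYP26C1 on replicate 1 alone. Both degrade retinoic acid.

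Promoter sequences from RefSeq, on GRCh38.p14, were at hand for 20 of the 39 genes, each 250 bases before and 50 bases after the start of the gene, and CpG pairs were counted in them. Cluster B was covered by HOXB1 alone and cluster C by HOXC4 and HOXC5 alone, so no detected gene of cluster B was included. For genes with several starts the one with most CpG pairs was taken. The observed number of CpG pairs over the number that base composition gives was above 0.6 in 18 of 20 HOX promoters (90%), against 51.8% of the 27305 genes in the table. It was above 0.6 in 11 of 11 genes detected on all 4 arrays and in 7 of the 9 others, HOXB1 and HOXD4 being the exceptions. HOXD13 passed narrowly, at 0.60015. HOXC4 and HOXC5 share 1 such start in this table. In cluster D, where detected and undetected genes lie close together, HOXD8 and HOXD11 both had CpG-rich promoters. The 250 bases before each start are printed as an example of a detected and an undetected gene of the same cluster, with CpG in capitals.

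HOXD8, chr2:176129455-176129704, plus strand, GRCh38.p14, 28 CpG pairs in these bases: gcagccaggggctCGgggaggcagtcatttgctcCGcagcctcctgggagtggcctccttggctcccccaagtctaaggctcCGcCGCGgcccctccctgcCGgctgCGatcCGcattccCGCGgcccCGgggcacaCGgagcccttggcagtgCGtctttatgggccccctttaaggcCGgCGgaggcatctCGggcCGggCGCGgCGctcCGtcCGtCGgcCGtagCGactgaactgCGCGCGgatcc

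HOXD11, chr2:176107030-176107279, plus strand, GRCh38.p14, 23 CpG pairs in these bases: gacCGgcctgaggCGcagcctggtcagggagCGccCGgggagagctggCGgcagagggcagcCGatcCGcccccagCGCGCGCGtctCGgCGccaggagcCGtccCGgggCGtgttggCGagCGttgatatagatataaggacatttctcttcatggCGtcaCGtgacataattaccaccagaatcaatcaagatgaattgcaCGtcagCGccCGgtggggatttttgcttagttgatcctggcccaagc

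The labelled cell type was checked against marker genes of epithelium and of other cell types. 10 of 12 epithelial markers were detected on all 4 arrays, including EPCAM, KRT8, KRT18, CDH1 and CDX2, and VIL1 and GPA33 were detected on none. Among protein-coding symbols 72.8% were detected on all 4 arrays and 20.1% on none. A high count of detected markers thus says little by itself about the cell type. Of 8 fibroblast markers, 1 was detected on all 4 arrays and 6 on none, and of 5 endothelial markers 2 and 3. Of 6 leukocyte markers 5 were detected on all 4 arrays, namely CD3E, CD14, CD68 and TYROBP, each with its only probe, and PTPRC with 1 of its 5 probes. The signals were 50.2 to 63.5 for CD3E, 152 to 174 for CD14 and 173 to 335 for TYROBP. The part of other cell types in the HOX values was not tested. The scanner software called 55.6% to 60.4% of spots well above background on the 4 arrays, and no spot was saturated.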

How the data were processed

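RNA of 4 bafilomycin A1 cultures was hybridised to single-colour arrays, and the authors deposited the scanner output of Agilent Feature Extraction 10.7.3.1 (version per the labels). The deposited intensity columns are linear Cy3 brightness, background-subtracted or processed by the software, not normalised between arrays. The deposited p-value column tests each spot against its background and was used only for flags, which the authors left as the software gave them. The background-subtracted signal was averaged over the spots of a probe, a step the methods do not state and that among HOX probes touches HOXD1 alone. As in the methods, it was then logged (log2) and centred on the array median, and the median was taken over the probes of a gene. Spots marked as outliers were left out. A signal of 0 or less could not be logged and was treated as missing. All 4 arrays lie on 1 slide. The number of arrays limits the precision, and the SD may include technical spread.

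Also tried were the software's processed signal with the 75th percentile as centre, normexp (offset 50) with quantile normalisation (limma 3.58.1, R 4.3.3), other detection rules, other probe filters and leaving out each replicate. Leaving out spots with an outlying background, and leaving out HOXD3 and HOXD9, were added after seeing the data. Scripts were run in Python 3.11.15 with pandas 2.3.3 and tested on simulated data. All HOX genes were named, and list genes were named by detection and by SD. Members and lists were chosen with earlier results of these data known. Values of 1 member, which is included in the counts over all HOX genes, and of 1 listed gene are not reported here.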

Additional observations from a re-analysis of the deposited data

Results flagged for a closer look

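In 3 of 38 HOX genes examined 1 array stood apart from the other 3 by the gap to its nearest neighbour relative to the whole range of the 4 values. The signal of HOXC11 on replicate 4 was 147, against -7.03 to -5.57 on the other arrays. The signal of HOXC10 on replicate 3 was 116, against 12.3 to 25.9. The normalised log2 signal of HOXB4 on replicate 3 was 5.17, against 4.97 to 4.99. HOXC10 and HOXC11 were examined on linear signals, and HOXC10 did not stand apart on the log2 scale, where its ratio of gap to range was 0.70. Chance sets 1 value apart in about 1 of 20 groups, and among all gene names detected on all 4 arrays 7.94% had such an array on the log2 scale, as did 8.54% of the probes not detected on all 4 arrays on the linear scale. Pooled over both scales, the share of HOX genes was near both, and it was not split by scale.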

How the results depend on the processing

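No paired analysis was possible because only 1 treatment group was analysed here. Detection of 26 HOX genes on all 4 arrays varied little: 25 with spots of outlying background left out, which drops HOXC4, 24 when every probe had to be detected, which drops HOXD3 and HOXD9, and 32 when 1 array was enough. Cluster C then held 8 detected genes in place of 5, and cluster D held 1 in place of 3 when every probe had to be detected. Detection counts for the whole set lay at 26 or 27 when 1 replicate was left out.

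The spread between arrays depended on the normalisation and on replicate 3. The median SD was 0.094 after normexp and quantile normalisation in place of 0.17, and 0.11 to 0.20 when 1 replicate was left out, lowest without replicate 3. Genes spanning more than 1.4-fold numbered 5 after normexp, and 2 (without replicate 3) to 8 with 1 replicate left out. The SD of the array means of all detected HOX genes was 0.19, or 0.0705 after normexp and 0.0429 (without replicate 3) to 0.22. For cluster A it was 0.16, and 0.0601 to 0.19. For cluster B it was 0.18, or 0.12 with the 75th percentile, 0.0794 after normexp, and 0.0901 to 0.22. For cluster C it was 0.22, or 0.11 after normexp, and 0.0696 to 0.27. For cluster D it was 0.47, or 0.14 with the 75th percentile, 0.0453 after normexp, 0.13 with detected probes, 0.0321 with probes positive on all arrays, 0.17 without HOXD3 and HOXD9, and 0.39 to 0.53. The mean deviation of cluster D on replicate 3 was 0.43, but -0.13 with the 75th percentile and -0.0762 with detected probes. The cause of these changes was not tested, except in cluster D, where undetected second probes enter the median.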
